A study of Mus musculus with 18 samples.

Results

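The genes described here encode the subunits of oxidative phosphorylation, found among 55401 gene identifiers by mouse symbol. The patterns were Nduf genes of the a, b, c, s and v series, Uqcr genes, Sdha to Sdhd, Cox4 to Cox8 genes and Atp5 genes, without pseudogenes, and they matched 86 identifiers. Of these, 77 had a mean of at least 20 raw counts over the 18 libraries and were kept. They fell into complex I (36 genes), complex II (4), complex III (8), complex IV (12) and complex V (14), and 3 further genes (Cox4nb, Atp5s and Atp5sl) match by symbol but are not subunits of a complex. All 77 passed the filter on low counts in every comparison. Just above the minimum stood Atp5g1, with a mean of 33.8 counts, and just below it Atp5g2 with 15.1, Cox7a1 with 11.5, Cox4i2 with 6.4 and Cox6a2 with 3.3. The other 5 matches below it (a second Ndufb8 identifier, Cox7b2, Cox8b, Cox8c and Atp5l2) had means of at most 0.2 counts.

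Complexes I to IV form the respiratory chain of the inner mitochondrial membrane. They pass electrons from NADH and succinate to oxygen, and complexes I, III and IV pump protons as they do so. Complex V, the ATP synthase, uses the proton gradient to make ATP. Every complex except II combines subunits encoded in the nucleus with a few encoded in mitochondrial DNA, and all genes counted here are nuclear.

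RNA-seq counts came from cultures of mouse embryonic fibroblasts (MEFs), primary cells grown from the body of 13.5-day embryos without head and viscera. In the S6K1 series there were WT cells with an empty vector (EV), WT cells with oncogenic HRAS (RAS) and RAS in S6K1 KO cells. The S6K1/S6K2 series had the same WT arms and a double knockout (DKO) of both kinases with RAS, again at 3 libraries a group. RAS stands for constitutively active HRAS G12V, delivered by retrovirus, an oncogene that brings primary fibroblasts to a lasting growth arrest known as senescence. S6K1 and S6K2, encoded by Rps6kb1 and Rps6kb2, are ribosomal S6 kinases downstream of mTORC1, and the study asked how their loss alters senescent cells. S6K1 KO and WT embryos came from the same mothers, whereas DKO embryos came from S6K2-deficient crosses and their WT controls from separate WT mothers. The study's methods name a pBABEpuro vector for EV and an MSCV-neo vector for RAS but describe puromycin selection for both, so the backbone of the RAS arm is not settled, and vector and oncogene cannot be told apart. EV libraries of the knockout lines were not analysed here. In bulk RNA, fewer cells of a type and less RNA per cell cannot be told apart.

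Total counts per library ranged from 8319445 to 14402442. Hras was higher with RAS in both series (log2 fold change 0.93 and 0.75). Rps6kb1 stood at 30.6 ± 6.73 CPM (counts scaled to the library total and by TMM factors within a series) in KO RAS and 68.9 ± 6.73 in WT RAS (SD, n = 3), without overlap but with an edgeR adjusted p of 0.234. In DKO RAS, Rps6kb1 (37.4 ± 2.69 against 80.5 ± 4.44 CPM) and Rps6kb2 (2.83 ± 0.186 against 25.8 ± 2.67 CPM) were lower, with adjusted p = 0.00908 and 7.44e-05. The 10 fibroblast markers summed to 43650 to 54049 CPM in the EV libraries and 23611 to 36158 CPM in the RAS libraries, and 4 of the 10 fell with RAS in each series. The 6 epithelial markers summed to 0.61 to 10.3 CPM with EV and 67.8 to 195 CPM with RAS, and 4 of 4 tested rose in each series. The 12 macrophage markers varied between lines, from 591 to 2922 CPM in WT EV, 685 to 3405 CPM in WT RAS and 231 to 792 CPM in KO RAS of the S6K1 series, and from 147 to 1300 CPM, 172 to 946 CPM and 71.8 to 222 CPM in WT EV, WT RAS and DKO RAS of the other series. None of the 12 was called in any comparison. The 12 muscle markers also summed higher with RAS, 57.4 to 87.5 CPM in WT EV against 152 to 170 CPM in WT RAS of the S6K1 series and 9.58 to 42.6 against 81.9 to 233 CPM in the other, with 1 gene called higher in each, of 4 and 3 tested. The 7 brown fat markers went from 10.8 to 14.6 CPM in WT EV to 23.6 to 30.2 CPM in WT RAS of the S6K1/S6K2 series (1 of 2 tested called higher) and overlapped in the S6K1 series (7.07 to 13.6 against 9.41 to 17.4 CPM). The 6 endothelial markers summed to 21.6 to 35.98 CPM in WT EV against 12.5 to 18.1 CPM in WT RAS of the S6K1/S6K2 series and to 14.2 to 20.4 against 9.95 to 14.8 CPM in the S6K1 series, with 1 gene called higher in each and 2 and 1 lower. In every group, between 4 and 7 of the muscle genes and between 1 and 4 of the brown fat genes were at 0 in all 3 libraries. The part of these cells in the results below was not tested.

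Per kilobase of transcript, the ATP synthase catalytic β subunit Atp5b had the highest level, 543 CPM per kb averaged over the 6 groups, with group means between 434 and 626. Next came Cox4i1 (537 CPM per kb), Cox6b1 (391.7), Cox6a1 (360) and Ndufa4 (280). Ndufa4 bears a complex I symbol but is now counted as a complex IV subunit, and it stays under its symbol here. The group means of Atp5b and Cox4i1 spanned overlapping ranges, since those of Cox4i1 lay between 440 and 612 CPM per kb. The lowest subunit genes were Atp5g1 (0.620 CPM per kb), Ndufb2 (2.91, named after its values were seen), Ndufs5 (6.23) and Cox7c (8.47). The transcripts used for Atp5g1 and Ndufb2 are 4.715 and 4.371 kb long, and a level per kilobase depends on that choice. Of the 50-base stretches of the transcripts, 29.4% for Atp5g1, 5.6% for Ndufb2, 49.8% for Ndufs5 and 71.5% for Cox7c were also found outside the gene in NCBIM37. Reads from such stretches can be lost or split between copies, and the values of Atp5g1, Ndufs5 and Cox7c are uncertain. The share was also over 50% for Atp5l, Cox5b, Uqcrb, Atp5h and Cox7a2l, between 10% and 50% for 19 genes in all, and 0 for 34 genes. Of all counts, the 77 genes held between 0.564% and 0.954% per library.

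Promoter sequence was available for 65 of the 77 genes in the RefSeq table used here (GRCm38.p6, 250 bases before to 50 bases after the start). Those of the 4 subunit genes called higher with RAS in at least 1 series are shown, because the comparisons below turn on them. Cox6b2 encodes the testis form of subunit VIb, Uqcrc1 a core protein of complex III, Uqcr11 a small accessory subunit of it and Ndufa7 an accessory subunit of complex I. Capitals mark matches to the motifs searched, on either strand.
Cox6b2 (chr7:4753045-4753344, minus strand): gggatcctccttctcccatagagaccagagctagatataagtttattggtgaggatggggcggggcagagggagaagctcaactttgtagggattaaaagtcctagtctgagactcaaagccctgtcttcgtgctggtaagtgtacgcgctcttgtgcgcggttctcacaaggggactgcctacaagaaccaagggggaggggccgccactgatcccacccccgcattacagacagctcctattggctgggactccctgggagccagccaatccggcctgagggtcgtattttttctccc
Uqcrc1 (chr9:108936398-108936697, plus strand): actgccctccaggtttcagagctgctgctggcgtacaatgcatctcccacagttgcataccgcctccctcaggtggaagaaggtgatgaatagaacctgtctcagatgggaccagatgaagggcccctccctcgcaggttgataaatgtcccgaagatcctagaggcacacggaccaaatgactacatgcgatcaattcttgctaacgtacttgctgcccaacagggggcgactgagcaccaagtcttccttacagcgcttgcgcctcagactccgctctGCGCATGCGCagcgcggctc
Uqcr11 (chr10:80406772-80407071, minus strand): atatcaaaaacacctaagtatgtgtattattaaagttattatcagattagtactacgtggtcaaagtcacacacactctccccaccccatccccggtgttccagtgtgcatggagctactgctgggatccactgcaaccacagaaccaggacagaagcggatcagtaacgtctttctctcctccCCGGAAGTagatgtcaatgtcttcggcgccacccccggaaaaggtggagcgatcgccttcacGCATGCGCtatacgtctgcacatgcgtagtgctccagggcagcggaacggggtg
Ndufa7 (chr17:33824322-33824621, plus strand): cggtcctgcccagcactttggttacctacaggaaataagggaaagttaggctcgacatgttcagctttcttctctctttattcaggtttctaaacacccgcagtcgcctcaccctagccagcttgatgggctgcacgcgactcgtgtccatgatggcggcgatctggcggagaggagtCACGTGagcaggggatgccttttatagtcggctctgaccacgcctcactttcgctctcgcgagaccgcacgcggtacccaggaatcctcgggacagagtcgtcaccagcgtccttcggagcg
The capitals in Uqcrc1 are 2 overlapping matches to the NRF1 motif GCGCATGC, which begin 31 and 33 bases after the start. In Uqcr11 they are the ETS-type GABP motif CCGGAAGT and the NRF1 motif, which begin 66 and 4 bases before the start. Ndufa7 held the E-box CACGTG, the site type bound by MYC, and Cox6b2 held none of the 6 motifs. For Ndufa7 a second, overlapping start is listed by RefSeq, and the first is shown.

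NRF1 and GABP (NRF2) are transcription factors known for binding promoters of respiratory chain genes. Over the 71 promoters of the 65 genes, the NRF1 motif was present in 12.7%, against 2.71% of all 32851 promoters of the same length. The shares were 16.9% and 2.75% for the YY1 motif AAGATGGC, 7.04% and 3.89% for GABP, 5.63% and 1.56% for the ERR motif CAAGGTCA, 5.63% and 1.79% for the cAMP response element TGACGTCA, and 12.7% and 7.15% for the E-box. Counted once per gene, the E-box was present in 10.8% of the 65 genes and 8.09% of all 27025 genes. Per gene, the shares were 13.8% and 3.05% for NRF1, 16.9% and 3.19% for YY1 and 7.69% and 4.31% for GABP. They were 6.15% and 1.76% for ERR and 6.15% and 2.03% for the cAMP response element. The 71 promoters were also richer in G and C, with a median of 57.7% against 52.7%, and held a median of 19 CG pairs against 7. By complex, the YY1 motif was present in 7 of 32 complex I genes, 3 of 13 complex V genes and none of the complex II, III and IV genes. The NRF1 motif was spread over all 5 complexes. A match is a description of the letters and not of binding.

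To ask whether oncogenic RAS altered subunit expression, WT RAS was compared with WT EV in the S6K1 series. Nearly all subunit genes had a higher mean with RAS: 71 of 77 log2 fold changes were positive, as were 7041 of all 14036 genes tested. The medians were 0.27 and 0.0018. With transcripts under 1 kb, the median was 0.31 for 43 of the 77 genes and 0.22 for 743 other genes. From 1 to 2 kb it was 0.24 for 25 of them and 0.11 for 2829 others. Of the cytoplasmic and mitochondrial ribosomal genes tested, 74 of 82 and 67 of 71 were positive. The median was 0.25 for complex I, 0.26 for complex II, 0.36 for complex III, 0.36 for complex IV and 0.32 for complex V. By edgeR's quasi-likelihood test with Benjamini-Hochberg adjustment over all genes, 1 of the 77 was called higher and 0 lower, where 7.15% of all genes were called higher and 6.09% lower. DESeq2 also called 1 higher and 0 lower, and 4 of the 77 had an unadjusted edgeR p under 0.05, which is 5.19% against 26.4% of all genes.

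Libraries with the same replicate number deviated from their group means together, with a correlation between 0.444 and 0.684 over all genes, and were taken as the same WT line. With the replicate number as a block, 36 of the 77 genes were called higher and 0 lower, where 18.1% of all genes were called higher and 18.1% lower. They were 10 genes of complex I, 2 of complex II, 5 of complex III, 9 of complex IV and 10 of complex V. The median difference within a line was 0.29 in line 1 (70 of 77 genes higher), 0.42 in line 2 (74 higher) and 0.13 in line 3 (56 higher). Without the block, leaving out RAS replicate 1 lowered the median over the 77 genes to 0.13 and leaving out EV replicate 1 raised it to 0.42. The blocked count rests on which lines are kept. Without line 3 it was 52 (67.5% of the 77, where 20.3% of all genes were called higher), without line 1 it was 5 (6.49% against 9.69%), and without line 2 it was 10 (13% against 9.85%).

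**Figure D1:**
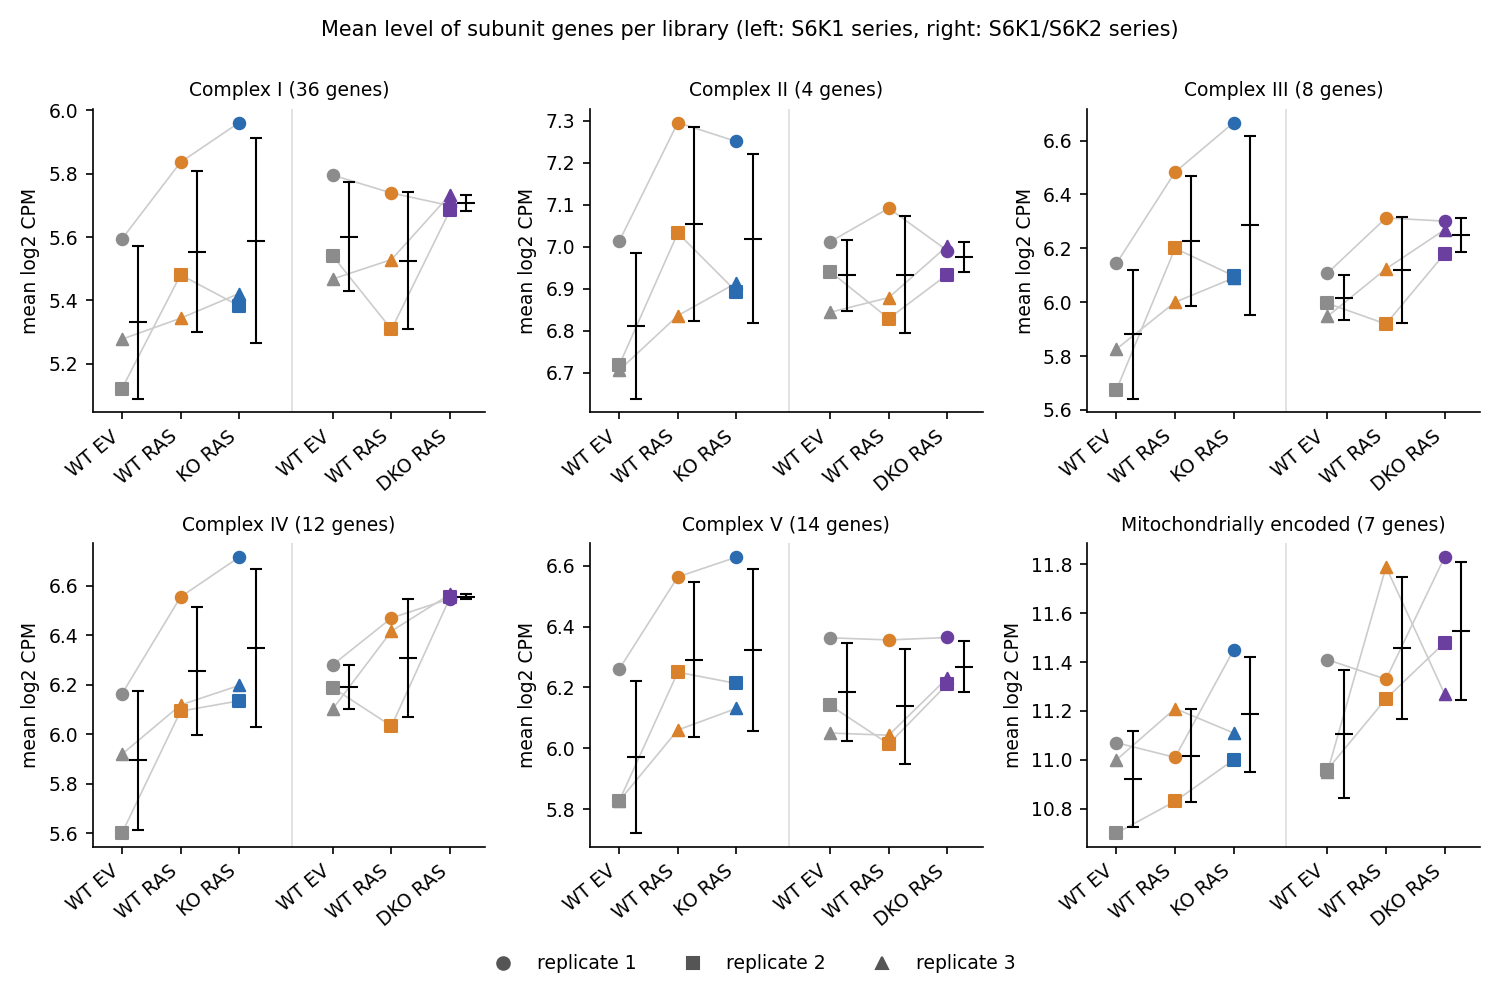
Mean log2 CPM over the genes of each complex and over 7 mitochondrially encoded subunit genes, by library. Points are libraries, marked by replicate number and joined by grey lines within a series, and the black bars give the mean and SD of 3 libraries. In the S6K1 series, replicate 1 is above replicates 2 and 3 for each nuclear complex in every group.

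The complex I genes averaged 5.59, 5.12 and 5.28 log2 CPM in the 3 EV libraries and 5.84, 5.48 and 5.34 in the 3 RAS libraries of the S6K1 series. The range over the lines of a group exceeded the difference between the group means, and the groups overlapped for all 5 complexes. Ndufs1, the large iron-sulphur subunit, stood at 110, 109 and 108 CPM with EV and at 109, 111 and 102 CPM with RAS. It was 1 of 4 complex I genes with a negative fold change. Ndufa7 had 88.5, 58.4 and 76.9 CPM with EV and 123, 92.2 and 93.7 CPM with RAS, the lowest RAS library standing above the highest EV library. The change was 0.46 on the log2 scale (SE 0.23, adjusted p = 0.234) without the block and 0.47 (adjusted p = 0.00764) with it. Ndufv1, the NADH-binding subunit (0.19, adjusted p = 0.463), and Ndufs3, a core subunit (0.18, 0.580), were called in neither fit.

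In complex II, the flavoprotein Sdha stood at 222, 213 and 210 CPM with EV and 245, 236 and 219 CPM with RAS, and the groups overlapped. The iron-sulphur subunit Sdhb and the membrane anchor Sdhc were called higher with the block (0.30 and 0.36, adjusted p = 0.0114 and 0.00408). In complex III, all 8 genes had a positive fold change. The core protein Uqcrc1 had 167, 139 and 129 CPM with EV and 205, 186 and 172 CPM with RAS. Uqcr11 had 35.2, 23.3 and 27.2 CPM with EV and 55.2, 39.3 and 38.3 CPM with RAS. Neither gene's groups overlapped, and both were called with the block (0.38 and 0.63, adjusted p = 0.00356 and 0.00108) and not without it (adjusted p = 0.161 and 0.164). The Rieske iron-sulphur protein Uqcrfs1 was also called with the block (0.44, adjusted p = 0.00341), and the core protein Uqcrc2 was called in neither fit (0.14, adjusted p = 0.601 without the block).

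In complex IV, the gene called without the block was Cox6b2 (chr7:4703396-4704696 on the minus strand of NCBIM37). Its levels were 14.2, 9.004 and 19.9 CPM with EV and 34.1, 21.2 and 34.2 CPM with RAS, without overlap. The change was 1.06 on the log2 scale (SE 0.29, adjusted p = 0.0433), and with the block 1.08 (adjusted p = 0.000486). Without the block, the call was lost when EV replicate 1 or 2 or RAS replicate 1 or 3 was left out (adjusted p between 0.0922 and 0.127), and Cox6b2 was also not called with only the 6 compared libraries (0.0840), with all 18 libraries in 1 fit (0.0599) or with the trend on length removed (0.0565). The somatic form Cox6b1 had a log2 fold change of 0.45 and was called with the block alone (adjusted p = 0.00935). Cox7c, whose counts are uncertain, had the lowest value of the 77 (fold change −0.26, adjusted p = 0.600), with overlapping groups. In complex V all 14 genes had a positive fold change. Atp5b stood at 1133, 920 and 879 CPM with EV and at 1321, 1143 and 1070 CPM with RAS, and the groups overlapped at replicate 1 of EV. Atp5b (0.27, adjusted p = 0.0230) and the δ subunit Atp5d (0.43, adjusted p = 0.00421) were called with the block. The α subunit Atp5a1 had a fold change of 0.13 and an adjusted p of 0.546 without it.

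**Figure D2:**
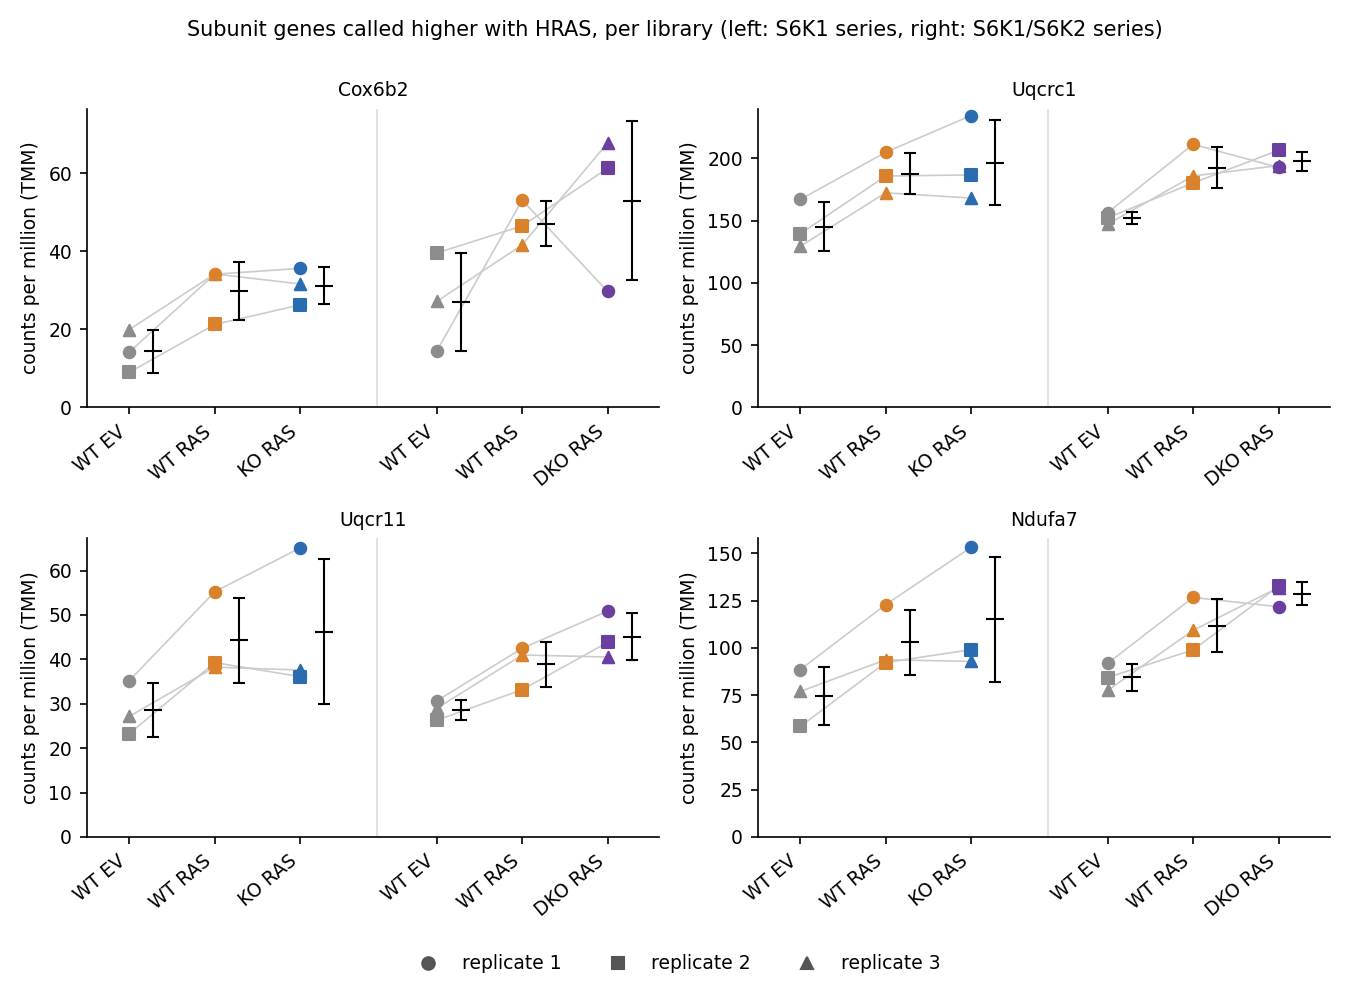
CPM of the 4 subunit genes called higher with RAS, by library, with the axis starting at 0. Points are libraries by replicate number, grey lines join replicate numbers within a series, and black bars are mean and SD (n = 3). All 4 genes have every WT RAS library above every WT EV library in both series. They were picked by their calls in these libraries, and the share of all genes without overlap is not given here.

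The same comparison was made for the S6K1/S6K2 lines. Here 39 genes had a positive and 38 a negative log2 fold change, with a median of 0.0031 against −0.024 over all 13881 genes tested. The complex medians were −0.03 (I), 0.04 (II), 0.16 (III), 0.17 (IV) and −0.04 (V). Called higher were 3 of the 77 genes, where 13.5% of all genes were, and 1 was called lower, where 12.7% of all genes were. The median of the 77 was −0.07 when RAS replicate 1 was left out and 0.09 when EV replicate 1 was, so its sign is not settled. With DESeq2 the counts were 4 and 1, and 12 of the 77 (15.6%) had an unadjusted edgeR p under 0.05, against 39.8% of all genes. With the replicate number as a block, 2 were called higher and 3 lower, against 15% and 13.7% of all genes, and 3 of the calls were in both fits. The correlations between libraries of the same number were 0.293 to 0.366 over all genes. Over the 77 genes they were 0.055, 0.145 and −0.101, against 0.645, 0.574 and 0.566 in the S6K1 series.

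Ndufa7 (chr17:33961536-33975261, plus strand of NCBIM37) had 91.8, 84.3 and 77.5 CPM with EV and 127, 98.9 and 109 CPM with RAS. Uqcr11 (chr10:79865742-79869575, minus strand) had 30.7, 26.3 and 29.0 CPM with EV and 42.5, 33.2 and 41.0 CPM with RAS. Uqcrc1 (chr9:108838661-108851685, plus strand) had 156, 152 and 147 CPM with EV and 211, 180 and 186 CPM with RAS. In all 3 genes, picked by their calls in these libraries, every RAS library was above every EV library. Their log2 fold changes were 0.40 (SE 0.12, adjusted p = 0.0397), 0.44 (SE 0.14, adjusted p = 0.0418) and 0.34 (SE 0.11, adjusted p = 0.0433). Under the block, the first 2 remained called and Uqcrc1 was not. Without WT RAS replicate 2 there were 2 higher calls, without EV replicate 1 there was 1, and without any of the other 4 libraries there were 0. The share of all genes called in these fits is not given here, so the counts cannot be set against it. With the block, leaving out line 1, 2 or 3 gave 0 higher calls each, where 14%, 0.72% and 13% of all genes were called higher.

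Cox6b2, called in the S6K1 series, had 14.5, 39.5 and 27.1 CPM with EV and 53.1, 46.5 and 41.6 CPM with RAS. The groups did not overlap, and the log2 value was 0.80 (SE 0.37, adjusted p = 0.132). Cox4nb, which encodes a subunit of the endoplasmic reticulum membrane complex (EMC) and no oxidase subunit, fell with RAS. It stood at 42.5, 33.5 and 35.3 CPM with EV and at 23.6, 22.9 and 22.2 CPM with RAS, which is −0.70 on the log2 scale (SE 0.17) at an adjusted p of 0.0156. Among the subunits, the lowest values were those of Atp5g1, a gene for the c subunit of the ATP synthase ring (−0.86, adjusted p = 0.0803), and Cox7c (−0.71, adjusted p = 0.0930). Both are among the genes with few counts and repeated sequence. Atp5g1 and the complex I accessory gene Ndufa5, named after its values were seen, were called lower with the block (−0.85 and −0.54, adjusted p = 0.0474 and 0.0459). Ndufs1 (−0.02), Sdha (0.06), Uqcrc2 (0.02) and Atp5a1 (−0.02) had fold changes close to 0, with adjusted p of at least 0.718.

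**Figure D3:**
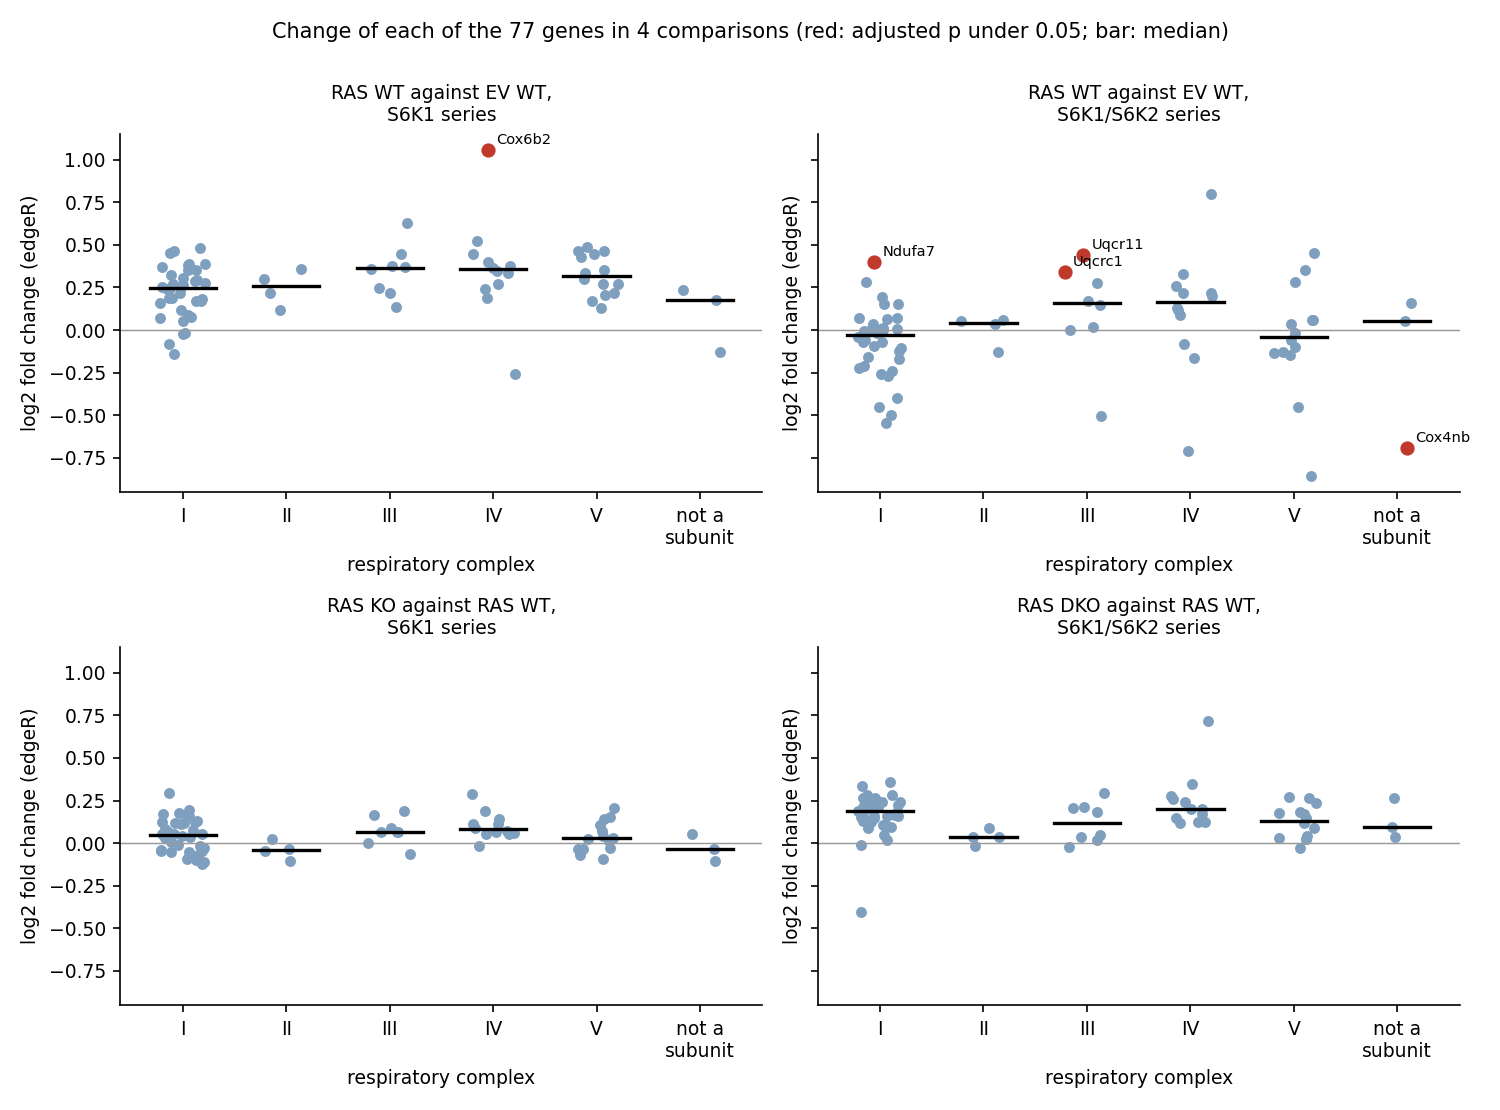
Log2 fold change of each of the 77 genes by complex in the 4 comparisons within a series. Points are genes, red and named where the edgeR adjusted p is under 0.05, and black bars are medians. With RAS, the complex medians lie between 0.25 and 0.36 in the S6K1 series and between −0.04 and 0.17 in the S6K1/S6K2 series.

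The difference between the series in the RAS effect was tested over all 18 libraries. For 74 of the 77 genes the S6K1/S6K2 value was lower, as for 7642 of all 14483 genes, with median differences of −0.26 and −0.03 (log2). With transcripts under 1 kb, the median was −0.316 for 43 of the 77 genes and −0.312 for 766 other genes. Cytoplasmic and mitochondrial ribosomal genes each had a median of −0.37. Of the 77, 0 genes were called in either direction by edgeR (0% of all 14483 genes higher and 0% lower) and 0 by DESeq2. An unadjusted p under 0.05 was found for 5 of the 77 genes (6.49%) and for 12.6% of all genes. Among the 5 were the ε subunit Atp5e (−0.91, adjusted p = 0.317), Atp5g1 (−1.04, adjusted p = 0.353) and Ndufv1 (−0.44, adjusted p = 0.370). Series and batch cannot be told apart, because each series was an experiment of its own.

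Changes were also set against transcript length. In the S6K1 series, 743 other genes with transcripts under 1 kb had a median log2 fold change of 0.22 and 3817 over 4 kb a median of −0.15. In the S6K1/S6K2 series the order was opposite for other genes, with medians of −0.11 and 0.08. The 77 genes showed no such order. Their medians in that series were −0.0035 under 1 kb (43 genes), 0.04 from 1 to 2 kb (25), 0.0041 from 2 to 4 kb (6) and −0.70 over 4 kb (3). The 3 genes over 4 kb are Cox4nb, which is not a subunit, Atp5g1, which has few counts, and Ndufb2. Across genes, Spearman's rho between change and length was −0.40 for the 77 genes and −0.24 for others in the S6K1 series, and −0.13 and 0.11 in the S6K1/S6K2 series. It was −0.29 and 0.18 for KO against WT RAS, and −0.35 and −0.21 for DKO against WT RAS. The 77 genes and the others thus had opposite signs in 2 of the 4 comparisons.

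Some libraries of one group differed with length as well. The pair with the strongest relation was S6K1 WT EV, where replicate 1 exceeded replicate 2 by a median of 0.45 over the 77 genes and 0.44 over other genes under 1 kb, with a rho of −0.54 for the 77 genes and −0.59 for 12798 others. Over all 18 pairs within a group, rho for the others ran from −0.59 to 0.26. The 3 DKO RAS pairs showed little of this, with medians of 0.06, 0.01 and −0.03 over the 77 genes and rho of −0.03, 0.07 and 0.17 for the others. These values are descriptions in which all genes of a pair share 2 libraries.

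Removing the trend on length from each library, chosen after seeing the data, gave closer values in the 2 series. With the block, 20 of the 77 genes were then called higher and 0 lower in the S6K1 series (background 19.4% and 16.9%), with a median of 0.13. In the S6K1/S6K2 series 10 were called higher and 3 lower (background 16.3% and 13.6%), with a median of 0.10. With the block alone, the higher calls of the series shared 2 genes, 5.56% of the 36 and 100% of the 2. With length removed as well, they shared 9 genes, which were 45% of the 20 and 90% of the 10. The same overlap over all genes is not given here, so these shares cannot be set against it. The 9 were Ndufa7, Uqcr11, Uqcrc1, Cox6b1, Cox6b2, Cox7a2 and Atp5d, and Ndufa12 and Uqcrq, named after their values were seen. The medians of complexes III and IV were 0.22 and 0.18 in the S6K1 series and 0.27 and 0.27 in the S6K1/S6K2 series, those of complex I 0.08 and 0.05. The median of the difference between series was then −0.02. Leaving out line 1, 2 or 3 gave 4, 3 or 18 higher calls in the S6K1 series (5.19%, 3.9% and 23.4% of the 77), where 11.5%, 10.6% and 21.1% of all genes were called higher. In the S6K1/S6K2 series it gave 5, 0 or 5 (6.49%, 0% and 6.49%), where 15.5%, 0.627% and 12.9% of all genes were.

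**Figure D4:**
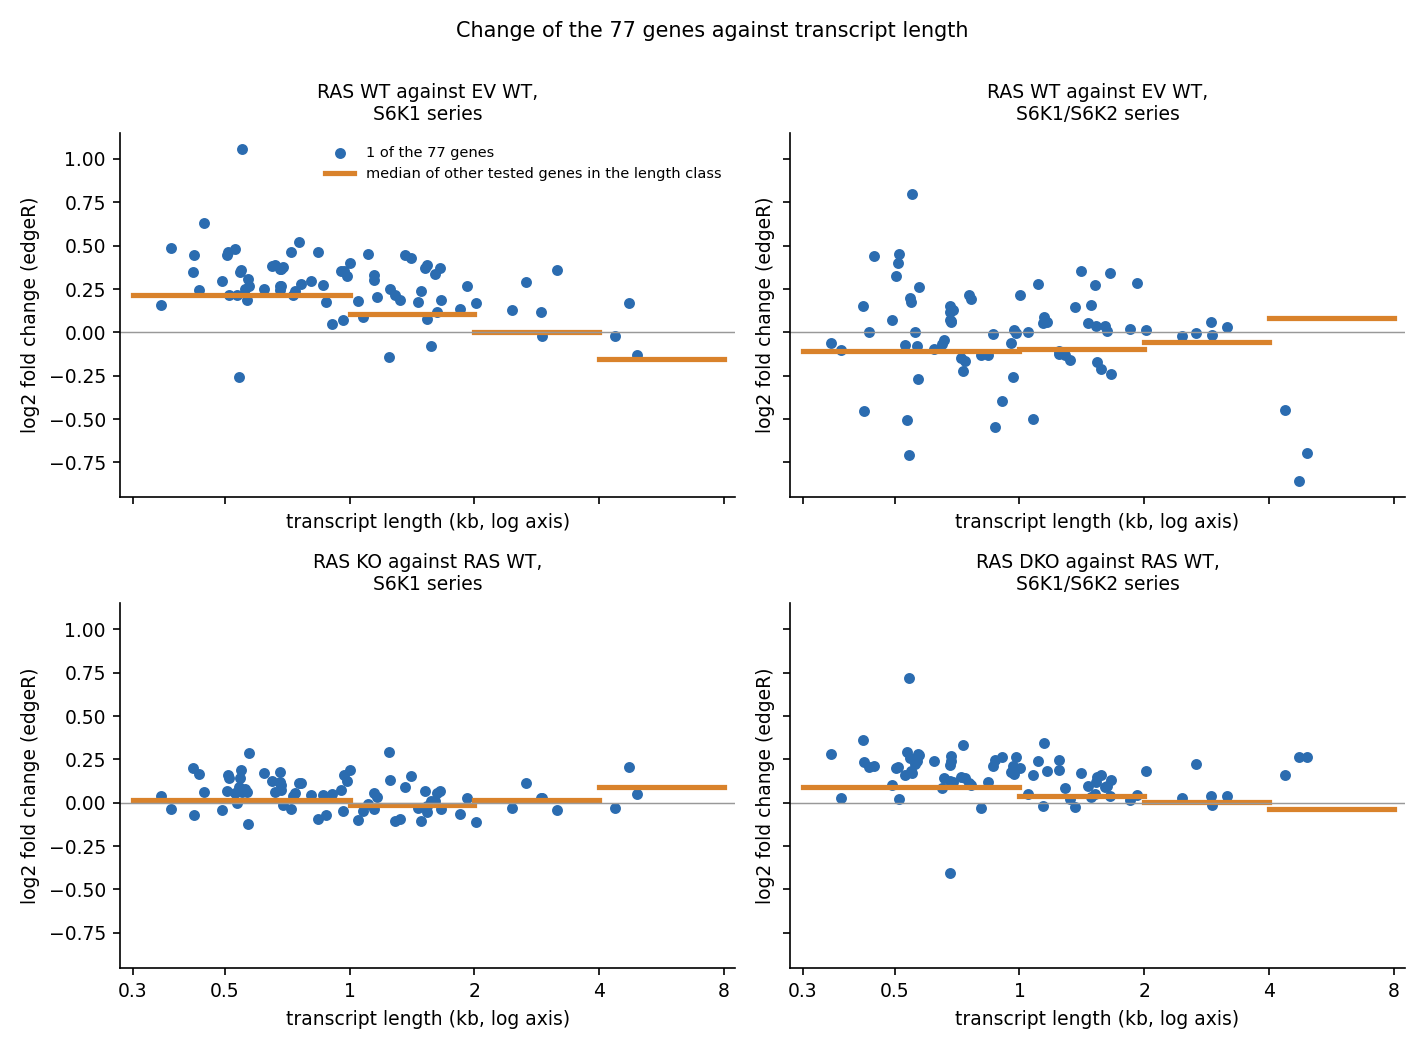
The change (log2) of each of the 77 genes (blue points) against transcript length on a log axis, with the median of all other tested genes in each length class (orange lines). For other genes under 1 kb with RAS the orange line is at 0.22 in the S6K1 series and at −0.11 in the S6K1/S6K2 series.

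To ask whether loss of S6K1 altered these genes in RAS cells, KO RAS was compared with WT RAS. None of the 77 genes was called by edgeR or by DESeq2, where 0% of all genes were called higher and 0.00712% lower. At an unadjusted p under 0.05 there were 0 of the 77 and 6.86% of all genes. The median log2 fold change was 0.05, against 0.03 over all genes, and the values ran from −0.12 to 0.29. The highest were Ndufa13, a complex I accessory gene (79.6 ± 15.6 against 65.0 ± 4.96 CPM, log2 fold change 0.29, SE 0.20), and the complex IV gene Cox6a1 (237 ± 62.9 against 194 ± 34.5 CPM, 0.29, SE 0.20). Their groups overlapped. Between KO and WT RAS libraries numbered 1, 2 and 3, the median difference was 0.12, −0.08 and 0.05. Libraries of the same number were taken as pairs, though the labels do not say that they are littermates. With 1 library left out, the overall median lay between −0.15 (without KO replicate 1) and 0.21 (without WT RAS replicate 1). With the block (correlations 0.393 to 0.692) the count was also 0, where 0.549% of all genes were called higher and 3.61% lower. Cox6b2 stood at 35.6, 26.3 and 31.6 CPM in KO RAS and Uqcrc1 at 234, 187 and 168 CPM, both overlapping WT RAS.

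The DKO RAS and WT RAS libraries were compared for loss of both kinases. None of the 77 genes was called by edgeR or DESeq2, where 0.0072% of all genes were called higher and 0.0144% lower. Of the 77, 72 had a positive fold change, as had 6929 of all 13881 genes tested, with medians of 0.17 and −0.00029. Of 82 cytoplasmic ribosomal genes, 73 were positive (median 0.235), and of 71 mitochondrial ribosomal genes, 54 were (median 0.067). With transcripts under 1 kb, the median was 0.21 for 43 of the 77 genes and 0.09 for 736 other genes. All 12 complex IV genes were positive (median 0.20), as were 34 of 36 complex I genes (median 0.19), while the median of complex II was 0.04, of complex III 0.12 and of complex V 0.13. The mean over complex IV was 6.55, 6.55 and 6.57 log2 CPM in the DKO libraries and 6.47, 6.03 and 6.42 in WT RAS. For this complex the DKO libraries lay close together and just above the others. In complexes I, II, III and V the DKO and WT RAS libraries overlapped. Complex I stood at 5.699, 5.685 and 5.734 log2 CPM in DKO RAS and 5.739, 5.309 and 5.529 in WT RAS. The median difference between libraries of the same number was −9.84e-05, 0.38 and 0.15, and the pair with 0.38 holds WT RAS replicate 2, the library with the lowest total count. Without that library the median over the 77 genes was 0.07, and without WT RAS replicate 1 it was 0.28. With the trend on length removed, the median over the 77 genes was 0.07.

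An unadjusted p under 0.05 was found for 3 of the 77 genes in DKO RAS (3.9%) and for 1.29% of all genes. Each of the 3 had an adjusted p of 1.00 and no overlap between the groups. Groups also did not overlap for Ndufa1, Ndufa12, Ndufb11, Ndufc2, Cox6a1 and Atp5h, higher in DKO RAS, and Ndufs5, lower. The 3 were picked by these p values, and the share of all genes without overlap is not given here. Cox7c had 6.23, 5.67 and 6.40 CPM in DKO RAS and 3.45, 2.62 and 4.996 CPM in WT RAS (log2 fold change 0.72). Cox7a2l, counted here under complex IV by its symbol, had 93.7, 107 and 101 CPM against 72.6, 73.6 and 90.9 CPM (0.35). The complex I accessory gene Ndufb10 had 81.3, 73.7 and 72.9 CPM against 67.4, 51.6 and 61.5 CPM (0.34). Sequence of the first 2 genes is repeated elsewhere in the genome (71.5% and 54.3% of stretches). Between the series, the difference in the effect of kinase loss was called for 0 of the 77 genes by edgeR and DESeq2, where 0% of all genes were called higher and 0.0069% lower. At an unadjusted p under 0.05 there were 0 of the 77 and 1.23% of all genes. The median difference was 0.15.

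Related gene lists were read from the same tests. Of the 13 mitochondrially encoded subunit genes, 7 were tested. The other 6 (mt-Nd3, mt-Nd4l, mt-Co2, mt-Co3, mt-Atp6 and mt-Atp8) were listed at means of 0 to 0.1 counts beside 80358 for mt-Co1, so no change could be measured for them, and these values say nothing of their expression. With RAS the median of the 7 tested was 0.12 in the S6K1 series and 0.22 in the S6K1/S6K2 series. The 1 call was mt-Nd6, a complex I subunit, in the latter (93.5 ± 15.99 against 43.1 ± 10.4 CPM, 1.12 on the log2 scale, adjusted p = 0.00499). That is 14.3% of the 7, where 13.5% of all genes were called higher. The mt-Nd6 gene lies on the opposite strand to its neighbours, and whether strand was used in counting is not given in the sources used here. Among 6 further nuclear genes outside the symbol patterns, cytochrome c1 (Cyc1) had log2 fold changes of 0.39 and 0.12 with adjusted p of 0.198 and 0.528, and Usmg5, a small ATP synthase subunit, rose in the S6K1/S6K2 series (0.91, adjusted p = 0.0444). Of 47 assembly factors, 2 rose in both series, which is 4.26% against 7.15% and 13.5% of all genes. They were Ttc19, which acts on complex III (0.51 and 0.91, adjusted p = 0.0130 and 0.00313), and the complex I factor Timmdc1 (0.49 and 0.47, adjusted p = 0.0376 and 0.0220). In the S6K1/S6K2 series 3 fell (6.38% against 12.7% of all genes), the lowest being the complex III factor Uqcc3 (−0.67, adjusted p = 0.02004) and the complex I factor Tmem126b (−0.59, adjusted p = 0.0247).

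Of the transcriptional regulators, none of 16 was called with RAS in the S6K1 series, where 1 had an unadjusted p under 0.05 (6.25% against 26.4% of all genes), and DESeq2's count for this list was not computed. In the S6K1/S6K2 series Myc (1.23, adjusted p = 0.0187) and the GABP subunit gene Gabpb1 (0.33, adjusted p = 0.0450) rose. Tfam, which packages and transcribes mitochondrial DNA, fell (−0.51, adjusted p = 0.0207). These calls were 12.5% of the 16 higher and 6.25% lower, where 13.5% and 12.7% of all genes were called. Nrf1 (−0.06 in each series), Gabpa (−0.20 and −0.02) and Esrra (0.10 and 0.04) were not called in either series. Ppargc1a, the coactivator PGC-1α, was too low to test. Of 13 TCA cycle genes, Suclg2 rose in the S6K1 series (0.58, adjusted p = 0.0167) and Dlst in the S6K1/S6K2 series (0.37, adjusted p = 0.0403). In each series that was 7.69% of the list, against 7.15% and 13.5% of all genes called higher.

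Of 21 glycolysis genes, 5 rose with RAS in the S6K1 series (23.8% against 7.15% of all genes, median 0.36) and 11 in the S6K1/S6K2 series (52.4% against 13.5%, median 0.85), and none was called lower. The highest were the lactate transporter gene Slc16a1 (1.48 and 1.79, adjusted p = 0.00539 and 0.000167) and the glucose transporter gene Slc2a1 (1.13 and 1.96, adjusted p = 0.00737 and 0.000123). Slc2a1 stood at 274 ± 18.2 CPM with RAS and 125 ± 32.1 CPM with EV in the S6K1 series, and at 325 ± 24.2 and 83.4 ± 16.3 CPM in the other. Genes of the cytoplasmic and mitochondrial ribosomes, which are also short, had medians of 0.23 and 0.21 in the S6K1 series and −0.09 and −0.11 in the S6K1/S6K2 series. In KO and DKO RAS no gene of these 8 lists was called by edgeR, and at most 2 genes of a list had an unadjusted p under 0.05.

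**Figure D5:**
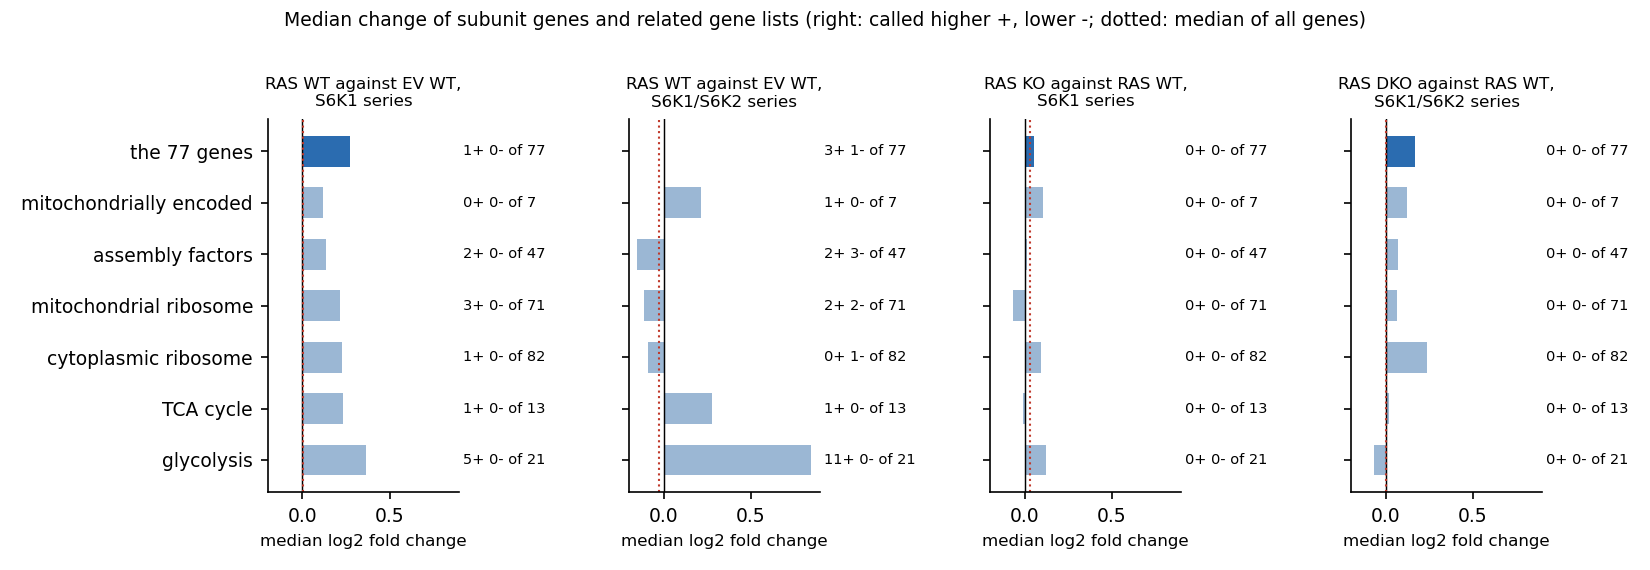
Median log2 fold change (bars) of the 77 genes and of 6 related lists in the 4 comparisons, with the number called higher and lower and the number tested at the right, and the median of all genes as a dotted line. Glycolysis has the longest bar with RAS in both series, at 0.36 and 0.85, while the bar of the 77 genes is at 0.27 and near 0.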

How the data were processed

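Poly(A) RNA of 18 MEF cultures was sequenced as single-end 50-base reads from stranded libraries. The authors deposited raw counts per gene, 1 column per library. The study's methods name TopHat with the mm9 genome and HTSeq, whereas the submitters' processing notes name STAR 2.7.1a, DESeq2 1.28.1 and mm10, so the build and counter behind the counts are not settled. Multi-mapped reads and reads of near-identical copies may be lost or split. Replicates are separate MEF lines per the methods. No pair of replicates agreed within sampling noise (lowest chi-square per degree of freedom 7.98).

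Counts were tested in R 4.3.3 with edgeR 4.0.16 (two-sided quasi-likelihood test, filterByExpr with a minimum count of 10, TMM, Benjamini-Hochberg adjustment over all genes tested, threshold 0.05), a separate fit of 9 libraries per series, without covariates beyond group. Differences between series were contrasts over 18 libraries. DESeq2 1.42.0 was an alternative. An SE is the log2 fold change divided by the square root of F. CPM is scaled by TMM within a series and given as mean ± SD, and mean log2 CPM over a complex used a prior count of 2. Groups, tests and alternatives other than those said to be added later were set from the labels, and the fit was tested on simulated data. The genes and lists were chosen with earlier results of these data known.

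Same-numbered libraries were tested as pairs through the correlation, over all genes, of their deviations from the group mean. RAS against EV in both series and KO against WT RAS were paired. DKO against WT RAS was not (0.279, 0.454 and −0.0351). The labels do not say that KO and WT lines of the same number are littermates. Length was that of 1 protein-coding GENCODE M1 transcript per gene, known for all 77 genes and for 91.7% and 91.9% of tested genes. A lowess trend of log2 CPM deviation on log2 length was removed as an offset. Gene positions are NCBIM37 and promoters RefSeq GRCm38.p6.

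Named genes were, per comparison, up to 3 called genes with the highest and lowest fold change, the smallest p in each complex, up to 3 genes farthest from their complex median and fixed core subunits. From related lists they were fixed regulators and cytochromes and up to 2 called genes at each end. Depth limits precision, and values of genes with few counts are the least certain.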

Additional observations from a re-analysis of the deposited data

How the results depend on the processing

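For RAS against EV in the S6K1 series, the 1 higher call became 36 with the replicate block, 3 with the length trend removed, 20 with the length trend removed and the block, and 0 with only the 6 compared libraries. In the S6K1/S6K2 series the 3 higher calls became 0 with upper-quartile scaling, 1 without a filter, 9 with length removed, 10 with length removed and the block, 0 with the 6 compared libraries and 0 with all 18 libraries in 1 fit. The 1 lower call became 3 without a filter, 3 with the block, 2 with length removed, 3 with length removed and the block, and 2 with all 18 libraries. The median difference between series in the RAS effect, −0.26, became −0.020 with length removed and −0.016 with length removed and the block. The share of all genes called is given above only for the block and for length removed with the block. The other counts cannot be set against it. In each case the cause was not tested.

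Leaving out libraries, with or without the block and the length correction, gave 0 to 52 higher and 0 to 1 lower calls in the S6K1 series, 0 to 5 higher and 0 to 5 lower calls in the S6K1/S6K2 series, and 0 to 4 higher calls for KO against WT RAS. The 4 came without replicate 3 with both corrections, where 8.64% of all genes were called higher. Without the block, the S6K1 call was lost without EV replicate 1 or 2 or RAS replicate 1 or 3, and the 5 lower calls came without EV replicate 3. The share of all genes called in fits without a library and without the block is not given here. The replicate block moved no other count by over 1.5 times: KO and DKO stayed at 0, also for the unpaired DKO comparison, where the block called 0.549% and 0% of all genes higher and 3.61% and 0.0576% lower.

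DESeq2, DESeq2 size factors, at least 10 counts in every library, and scaling without mitochondrially encoded genes kept every count within 1.5 times and every median in direction. The RAS median of the S6K1/S6K2 series, near 0, was −0.04 with upper-quartile scaling and also below 0 without a filter, and the KO median changed sign without KO replicate 1 or WT RAS replicate 2 or 3. No call changed direction. Of the values for named genes under the alternatives, 82 gained and 7 lost a call for RAS against EV in the S6K1 series, 19 gained and 44 lost one in the S6K1/S6K2 series, and 5 gained one for KO. Genes with under 100 counts on average, such as Atp5g1, Ndufs5 and Cox7c, are limited by depth.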
